A study of Mus musculus with 18 samples.

Results

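The genes described here encode 8 neuropeptides of the spinal dorsal horn, Tac1, Grp, Sst, Npy, Nts, Cck, Gal and Nmu, and 2 of their receptors, Tacr1 and Grpr. They were taken by name, with no threshold on their values, although earlier results of these data were known, and all 10 were found among the 18380 named genes of the tables, which hold 34579 loci. RNAseq was performed on dorsal spinal cord of the lumbar segments L3–5 from C57BL/6 mice (C57BL/6N in the study's methods) aged 3 months. The mice had received rAAV-LacZ, rAAV-HDAC4 wt or rAAV-HDAC4 3SA into the spinal cord and, 24 h before tissue collection, intraplantar saline or CFA (Complete Freund's Adjuvant, which inflames the paw). LacZ, a bacterial enzyme, served as the control, HDAC4 wt is the unaltered histone deacetylase 4, and HDAC4 3SA is a mutant that is retained in the nucleus. Each of the 6 groups held 3 mice, 18 in all. The saline mice of a vector carry the same rAAV as its CFA mice, so no group is free of virus or of spinal surgery. The rAAVs were injected into the dorsal horn on both sides. The promoter of the vectors, the share of transduced cells in the sequenced tissue and the sex of each mouse are not given in the sources used here. CFA was given in 1 hindpaw, and whether the sequenced tissue came from the injected side is not given either.

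The deposited tables, 1 per vector, hold a single value for each group of 3 mice. The unit is FPKM, read fragments per length of transcript and per number of mapped fragments, which allows levels to be compared between genes. No value per mouse, read count or depth per library was in the tables, so no SD can be given and no difference could be tested across mice. All changes are therefore descriptions of group values. Ratios divide the CFA by the saline level within a vector and are given on the log2 scale, with 0.1 FPKM added to both, which understates the change of low genes. Genes were read where the mean of both values was at least 0.5 FPKM, and a log2 ratio beyond 0.5 in either direction was counted as past the threshold, without any p-value. Each vector's table was normalized on its own, so levels are set across vectors only as a description.

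Neuropeptides are made as precursor proteins, cut and modified in the secretory pathway, stored in dense core vesicles and released during sustained activity. They act on G protein-coupled receptors at some distance from the release site. In the dorsal horn they mark separate groups of interneurons and are known for tuning pain and itch: substance P and gastrin-releasing peptide excite the cells that carry their receptors, whereas somatostatin, neuropeptide Y and galanin are mainly inhibitory. Because whole tissue was sequenced, fewer cells of a type and less RNA per cell cannot be told apart.

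With LacZ 9 of the 10 genes were higher after CFA than after saline, whereas 9 of 10 were lower after CFA with HDAC4 wt and 9 of 10 were lower with HDAC4 3SA. The exceptions were Nmu, which hardly differed with LacZ, and Gal, which was higher after CFA with every vector. Their median log2 ratio was 0.21 with LacZ, -0.27 with HDAC4 wt and -0.35 with HDAC4 3SA, while the median over all loci was 0.00, 0.01 and 0.01. Among all loci read, 50.2% were higher after CFA with LacZ, 52.4% with HDAC4 wt and 51.8% with HDAC4 3SA. The combination of a higher value with LacZ and a lower value with both HDAC4 vectors was found for 8 of 10 genes and for 13.8% of all loci. Summed over the 10 genes, the level went from 222 to 274 FPKM with LacZ, 273 to 224 FPKM with HDAC4 wt and 226 to 186 FPKM with HDAC4 3SA.

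**Figure D1:**
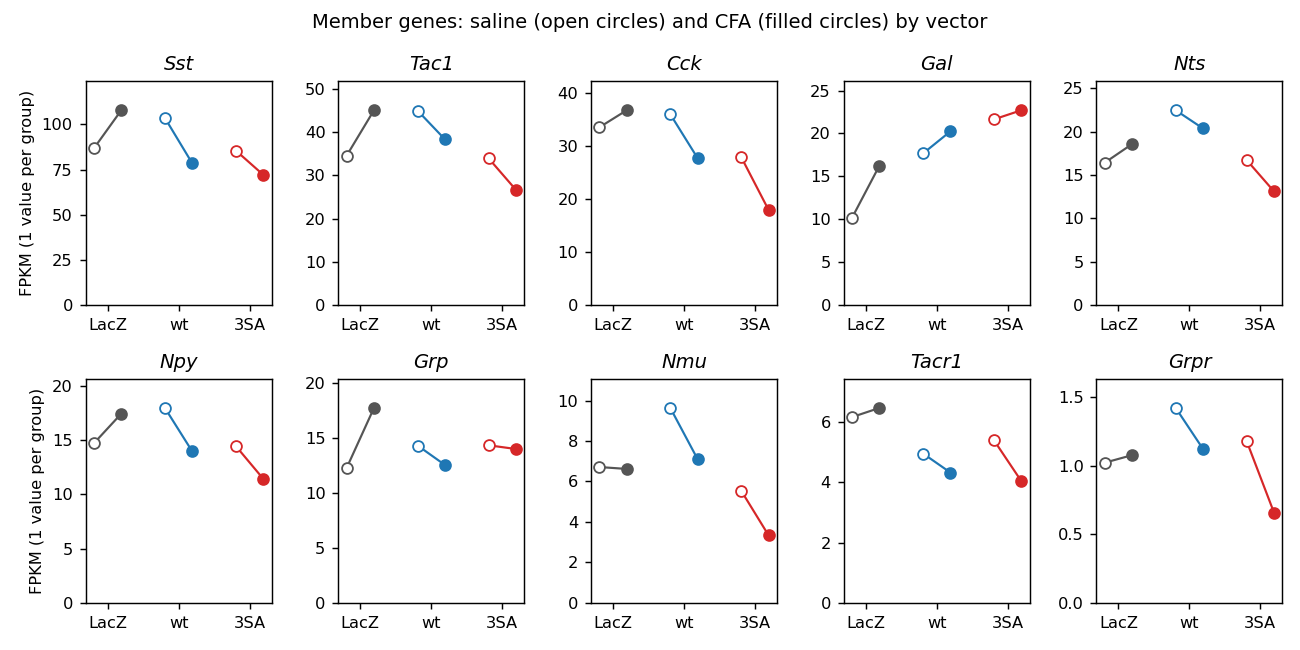
Levels of the 10 genes in FPKM (vertical axes, starting at 0, a separate scale for each gene) for the vectors LacZ, HDAC4 wt and HDAC4 3SA. Open circles are the saline and filled circles the CFA group value, 1 value over 3 mice each, so there is no error bar; most lines go up with LacZ and down with both HDAC4 vectors, and those of Gal go up with all 3.

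Few of these differences reached the threshold. With LacZ the log2 ratio was above 0.5 for Gal and Grp, 2 of 10 genes, and below -0.5 for 0. Of all loci, 5.15% were above 0.5 and 4.36% below -0.5 in this table, or 2.29% and 2.31% of those with a mean of at least 5 FPKM. With HDAC4 wt none of the 10 genes passed it in either direction, where 10.7% of all loci were above and 6.74% below, or 6.07% and 3.15% at 5 FPKM or more. With HDAC4 3SA 0 genes were above 0.5 and 3 of 10, Grpr, Nmu and Cck, were below -0.5. Of all loci read for this vector, 11.3% were above and 5.91% below, or 7.41% and 3.2% at 5 FPKM or more.

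**Figure D2:**
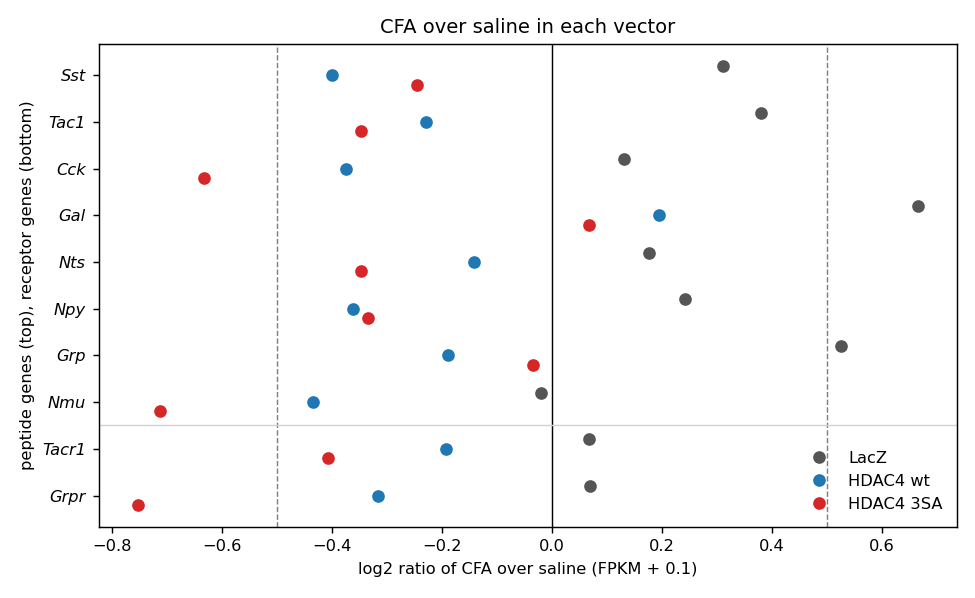
Log2 ratio of CFA over saline (horizontal axis, 0.1 FPKM added) for the 8 peptide genes and, under the grey line, the 2 receptor genes. Each point is the ratio of 2 group values and dashed lines mark 0.5 and -0.5; in every row the LacZ point lies to the right of both HDAC4 points.

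The ratios were also set side by side between vectors. Each ratio is formed within its own table and the vectors share no mice, so this comparison does not rest on levels across tables. The log2 ratio was larger with LacZ than with HDAC4 wt for 10 of 10 genes, against 49.8% of all loci, and larger with LacZ than with HDAC4 3SA for 10 of 10, against 50.1%. The ratio with HDAC4 wt minus that with LacZ had a median of -0.49 and ranged from -0.71 for Grp to -0.26 for Tacr1. The ratio with HDAC4 3SA minus that with LacZ had a median of -0.59 and ranged from -0.82 for Grpr to -0.48 for Tacr1. Between the HDAC4 vectors the ratio was larger with HDAC4 wt for 7 of 10 genes, against 50.7% of all loci, and the median difference was -0.17. Whether these differences exceed the spread between mice was not tested.

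Somatostatin, encoded by Sst, inhibits neurons through its receptors and is made by many excitatory interneurons of the superficial dorsal horn. Sst was the most abundant of the 10 genes in every group, and its mean of 89.0 FPKM was above that of 95.9% of named genes. It had 86.8 FPKM (saline) and 108 FPKM (CFA) with LacZ, 104 and 78.5 FPKM with HDAC4 wt, and 85.5 and 72.1 FPKM with HDAC4 3SA. The log2 ratios were 0.31, -0.40 and -0.24. The saline values of LacZ and HDAC4 3SA mice were close to each other, and the lowest of the 6 values was that of HDAC4 3SA mice after CFA.

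The promoters are shown for the cyclic AMP response element (CRE, letters TGACGTCA) and its half-site (letters TGACG), because the CRE of the somatostatin gene is a textbook target of the activity-regulated factor CREB. RefSeq windows of the build GRCm38.p6, from 250 bases before to 50 bases after a start, were given for 9 of the 10 genes, and both strands were searched. The full CRE was in 1 of 9 windows, that of Sst, and in 1.79% of all 32851 windows. The half-site, which is part of the full element, was in 8 of 9, all but that of Npy, and in 20.8% of all windows. In Sst (minus strand, chr16:23890874-23890903) the first base of the CRE, in capitals, is 48 bases before the RefSeq start.
Sst: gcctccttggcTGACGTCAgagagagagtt
Tac1 (plus strand, chr6:7555006-7555034), Cck (minus strand, chr9:121495725-121495753), Nmu (minus strand, chr5:76363875-76363903) and Grpr (minus strand, chrX:163549800-163549828) are shown around a half-site, in capitals. Tac1 has another, not shown, whose first base is 197 bases before the RefSeq start. They had the largest changes with HDAC4 3SA or, for Tac1, the highest level after Sst. The first base of the half-site shown is 43, 47, 114 and 80 bases before the RefSeq start, in that order, and in Tac1 and Cck it reads on the other strand.
Tac1: gctctacaggctCGTCAcgcctgagataa
Cck: cctgctggactgCGTCAgcactgggtaaa
Nmu: agcaggtccgggTGACGccagggagccag
Grpr: tagggaagccagTGACGtccaaagcatcc
GENCODE M21 annotates starts further upstream for Sst and Tac1, so that the stretches shown for both lie in the first exon there, within the 5′ UTR, whereas those of Cck, Nmu and Grpr overlap no annotated exon. Of the other motifs searched, AP-1 (TGANTCA) was in the windows of Nmu and Nts, 2 of 9, and in 7.81% of all windows. TATAAA was in 0 of 9 and in 13.6% of all windows. The MEF2 motif, of interest because HDAC4 binds MEF2 factors, was in 0 of 9 and in 3.19% of all windows. A match describes letters in a window and is no evidence of binding, and the 5 motifs were chosen after the expression values were known.

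Tac1 encodes the precursor of substance P and neurokinin A, excitatory tachykinins of nociceptive afferents and of dorsal horn neurons. Its level was 34.5 FPKM (saline) and 45.0 FPKM (CFA) with LacZ, 44.9 and 38.3 FPKM with HDAC4 wt, and 33.9 and 26.6 FPKM with HDAC4 3SA. The log2 ratios were 0.38, -0.23 and -0.35. The HDAC4 wt group started, after saline, at the level that LacZ mice had after CFA. Tac1 lies on the plus strand of chromosome 6 (chr6:7554657-7563980, GRCm38). This locus covers 45.5% of the exon bases that GENCODE M21 annotates, counted over all transcripts of the gene together. Whether a full transcript lies within the locus was not examined.

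Tacr1 encodes the neurokinin 1 receptor, which binds substance P and marks many projection neurons of lamina I. Its values were 6.16 and 6.46 FPKM with LacZ, 4.95 and 4.32 FPKM with HDAC4 wt, and 5.39 and 4.04 FPKM with HDAC4 3SA, saline before CFA. The log2 ratios were 0.07, -0.19 and -0.41. These LacZ values lay above all 4 values of the HDAC4 vectors, and Tacr1 was the only one of the 10 genes whose saline value was lower with HDAC4 wt than with LacZ. The locus on chromosome 6 (chr6:82402372-82560103) covers 99.4% of the annotated exon bases.

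Cck encodes cholecystokinin, a peptide of excitatory interneurons in the deeper dorsal horn. It had 33.5 FPKM (saline) and 36.7 FPKM (CFA) with LacZ, 35.9 and 27.7 FPKM with HDAC4 wt, and 27.9 and 17.9 FPKM with HDAC4 3SA. The log2 ratios were 0.13, -0.38 and -0.63. After CFA the HDAC4 3SA value was lower than that of LacZ mice by a log2 ratio of -1.03, the largest such gap among the 10 genes. Nts encodes neurotensin, found in another set of excitatory interneurons. It had 16.4 and 18.6 FPKM with LacZ, 22.5 and 20.4 FPKM with HDAC4 wt, and 16.7 and 13.1 FPKM with HDAC4 3SA, with log2 ratios of 0.18, -0.14 and -0.35. Both HDAC4 wt values of Nts were above the LacZ values, and the HDAC4 3SA group was the lowest after CFA.

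Nmu encodes neuromedin U, a peptide that excites sensory pathways. It had 6.71 FPKM (saline) and 6.62 FPKM (CFA) with LacZ, 9.63 and 7.10 FPKM with HDAC4 wt, and 5.54 and 3.34 FPKM with HDAC4 3SA. The log2 ratios were -0.02, -0.43 and -0.71. Nmu had the widest range of the 10 genes, 2.88-fold between the HDAC4 wt saline and the HDAC4 3SA CFA value.

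Npy encodes neuropeptide Y, an inhibitory peptide of GABAergic interneurons. It had 14.7 FPKM (saline) and 17.4 FPKM (CFA) with LacZ, 17.9 and 13.9 FPKM with HDAC4 wt, and 14.4 and 11.4 FPKM with HDAC4 3SA, and its log2 ratios were 0.24, -0.36 and -0.33. As for Sst, the saline values of LacZ and HDAC4 3SA mice were nearly equal, and the CFA values lay on opposite sides of them.

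Gal encodes galanin, an inhibitory peptide of dorsal horn interneurons that sensory neurons also make after nerve injury. It was the only one of the 10 genes that was higher after CFA with every vector. Its level was 10.2 FPKM (saline) and 16.2 FPKM (CFA) with LacZ, 17.7 and 20.2 FPKM with HDAC4 wt, and 21.6 and 22.7 FPKM with HDAC4 3SA. The log2 ratio was 0.67, or 1.59-fold, with LacZ, 0.19 with HDAC4 wt and 0.07 with HDAC4 3SA. All 4 values of the HDAC4 vectors were above both LacZ values. After saline, the log2 ratio of HDAC4 3SA over LacZ was 1.08 and that of HDAC4 wt over LacZ was 0.79. The locus lies on the minus strand of chromosome 19 (chr19:3409908-3414646).

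Grp encodes gastrin-releasing peptide, made by excitatory interneurons of the superficial dorsal horn and known for a part in itch. With LacZ its level was 12.3 FPKM (saline) and 17.7 FPKM (CFA), a 1.44-fold difference and a log2 ratio of 0.53. With HDAC4 wt it was 14.3 and 12.5 FPKM (log2 ratio -0.19), and with HDAC4 3SA 14.3 and 14.0 FPKM (-0.03). The 4 values of the HDAC4 vectors lay between both LacZ values.

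Grpr encodes the receptor of gastrin-releasing peptide and was the least abundant of the 10 genes, with a mean of 1.08 FPKM. It had 1.02 and 1.08 FPKM with LacZ, 1.42 and 1.12 FPKM with HDAC4 wt, and 1.18 and 0.657 FPKM with HDAC4 3SA, saline before CFA, with log2 ratios of 0.07, -0.32 and -0.75. Grpr is the only one of the 10 names with 2 loci, both from 163508247 to 163549706 on chromosome X. The tables name no strand, but within a chromosome the loci run through its length first for one strand and then for the other: of 3572 genes with a single locus in the first run, 99.8% are annotated on the plus strand, and of 3591 in the second run, 99.8% on the minus strand. By this order the locus used for Grpr is on its own, minus, strand. The other locus, on the opposite strand, had 0.820 and 0.887 FPKM with LacZ, 0.691 and 0.993 FPKM with HDAC4 wt and 0.482 and 0.50 FPKM with HDAC4 3SA. With both loci added, the log2 ratio of Grpr was 0.00 with HDAC4 wt and -0.48 with HDAC4 3SA. At this level and without read counts, the precision of the Grpr values is unknown.

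By mean level over the 6 groups the order was Sst, Tac1, Cck, Gal, Nts, Npy, Grp, Nmu, Tacr1 and Grpr. Sst was above Tac1, Grp above Nmu and Tacr1 above Grpr without overlap of their 6 values. The other neighbours overlapped in their ranges, although Tac1 was above Cck and Nts above Npy in 6 of 6 groups. Gal and Nts, with means of 18.1 and 18.0 FPKM, had the order Gal before Nts in 2 of 6 groups only. The highest value of a gene was a median of 1.70 times its lowest, against 1.38 for the 18600 loci at 0.5 FPKM or more in every group and 1.24 for the 9714 loci at 5 FPKM or more. The lowest of the 6 values was that of HDAC4 3SA mice after CFA for 8 of 10 genes, all but Grp and Gal, and for 19.3% of all loci. The highest was that of LacZ mice after CFA for 5 of 10 genes, against 16.4% of all loci, and that of HDAC4 wt mice after saline for 4 of 10, against 13.5%.

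Because a CFA ratio also depends on where the saline group starts, the levels were set beside each other across vectors. After saline, 9 of 10 genes were higher with HDAC4 wt than with LacZ, against 53.7% of all loci, with a median log2 ratio of 0.33. Between HDAC4 3SA and LacZ the saline values differed in both directions: 4 of 10 genes were higher with HDAC4 3SA, against 55% of all loci, and the log2 ratio ranged from -0.27 for Nmu to 1.08 for Gal, with a median of -0.02. After CFA, 4 of 10 genes were higher with HDAC4 wt than with LacZ, against 51% of all loci, and only Gal, 1 of 10, was higher with HDAC4 3SA than with LacZ, against 50.8%. HDAC4 3SA mice were above HDAC4 wt mice after CFA for 2 of 10 genes, Grp and Gal, against 49.6%. Between vectors, the median log2 level difference of all loci at 5 FPKM or more was at most 0.0135 in these comparisons with LacZ. The marker lists also differed between the saline groups. The summed level with LacZ, HDAC4 wt and HDAC4 3SA was 111, 363 and 301 FPKM for 5 microglial genes, 853, 1299 and 1294 FPKM for 5 astrocyte genes, 3450, 2627 and 2961 FPKM for 7 genes of all neurons, and 33.9, 36.1 and 33.5 FPKM for 6 genes of dorsal horn neurons. Gfap had 389, 807 and 805 FPKM, and Aqp4 and Aldh1l1 were also higher with both HDAC4 vectors. Slc1a2 (191, 159 and 173 FPKM) and Gja1 (119, 102 and 103 FPKM) were lower. Of the neuronal genes, Rbfox3 had 71.6, 68.0 and 73.7 FPKM and Syt1 86.2, 90.8 and 84.6 FPKM. The others were lower with both HDAC4 vectors. The dorsal horn sum includes Prrxl1 (5.44, 4.84 and 3.40 FPKM), read on the opposite strand by the order of the loci. The part of the lists in the saline levels of the 10 genes was not tested.

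Other neuropeptide genes of the cord were read from a list of 12, of which 10 were found. Their median log2 ratio was 0.27 with LacZ, -0.08 with HDAC4 wt and -0.31 with HDAC4 3SA, with 6, 5 and 4 of the 10 higher after CFA. Tac2, the precursor of neurokinin B and the most abundant of the list, went from 64.7 to 82.4 FPKM with LacZ, 89.5 to 69.5 FPKM with HDAC4 wt and 73.9 to 59.1 FPKM with HDAC4 3SA, the pattern of Tac1 and Sst. Trh, the thyrotropin-releasing hormone gene, stood at 3.56 FPKM (saline) and 1.82 FPKM (CFA) with HDAC4 3SA, a log2 ratio of -0.93, the only one of the list below -0.5 in any vector. Calca, the CGRP gene of nociceptors and motor neurons, was higher after CFA with every vector and went from 20.3 to 34.4 FPKM with HDAC4 wt, a log2 ratio of 0.76. Calcb, which encodes the other CGRP, had log2 ratios of -0.16, 0.78 and 0.50, and Crh, the corticotropin-releasing hormone gene, had 0.73, 0.25 and 0.15. In all, 1 gene of the list was above 0.5 with LacZ, 2 with HDAC4 wt and 0 with HDAC4 3SA.

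Other receptors of the peptides were read from a list of 21 genes, of which 17 were found and 15 reached 0.5 FPKM. They stayed close to their saline level with LacZ, with a median log2 ratio of 0.01 and a range from -0.14 to 0.17. With HDAC4 wt 13 of 15 were lower after CFA, with a median of -0.25, and 0 passed -0.5. With HDAC4 3SA 14 of 15 were lower, with a median of -0.41, and 4 were below -0.5. These were Galr1 for galanin (-0.58), Npy5r (-0.57) and Npy2r (-0.51) for neuropeptide Y, and Tacr3 for neurokinin B (-0.53). Of the listed receptors, the most abundant was Ntsr2 for neurotensin, at 87.3 and 87.7 FPKM with LacZ, Tacr3 for tachykinins other than substance P, Sstr2 for somatostatin, Npy1r for neuropeptide Y, Cckbr for cholecystokinin, and Galr1 for galanin, which lay between 0.588 and 1.05 FPKM. Nmur1 and Nmur2, the receptor genes of neuromedin U, were looked up but not matched to a locus by name, and the receptor of gastrin-releasing peptide is Grpr, described above. Sstr2 had log2 ratios of 0.12, -0.36 and -0.31, Npy1r 0.13, -0.29 and -0.40, and Cckbr 0.06, -0.12 and -0.46. Ntsr2, which astrocytes also express, had 0.01, 0.11 and -0.03. Sort1, which encodes sortilin, another protein that binds neurotensin, had -0.03, 0.02 and -0.06, and Cckar, a cholecystokinin receptor gene, had -0.11, -0.25 and 0.10.

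The machinery that matures and stores peptides is shared by all peptidergic cells. Of 13 genes for convertases, granins and release factors, 6 were higher after CFA with LacZ, 1 with HDAC4 wt and 0 with HDAC4 3SA, and the medians were -0.01, -0.13 and -0.23. Pcsk1, which encodes the prohormone convertase that makes the first cuts, had log2 ratios of 0.13, -0.26 and -0.63 and was the only one of the 13 past the threshold. Scg2, a granin gene whose product is itself a peptide precursor, had 0.11, -0.24 and -0.44. The granin gene Chga had 0.01, -0.03 and -0.17, and Pcsk1n, which encodes the convertase inhibitor proSAAS, had 0.25, -0.06 and -0.02. Cpe, the carboxypeptidase that trims peptides and the most abundant of the list, had ratios between -0.04 and -0.14. Of 9 genes for enzymes that degrade peptides, 8 reached 0.5 FPKM, and the medians were 0.06, 0.00 and 0.02. Mme, which encodes neprilysin, was past the threshold at -0.55 with HDAC4 3SA. No other locus used for this list passed it, but the one used for Ece2, an endothelin-converting enzyme gene, lies by the order of the loci on the opposite strand (-0.42, 0.01 and 0.44), and the more abundant locus on its own strand had 0.66, -0.11 and 0.51.

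**Figure D3:**
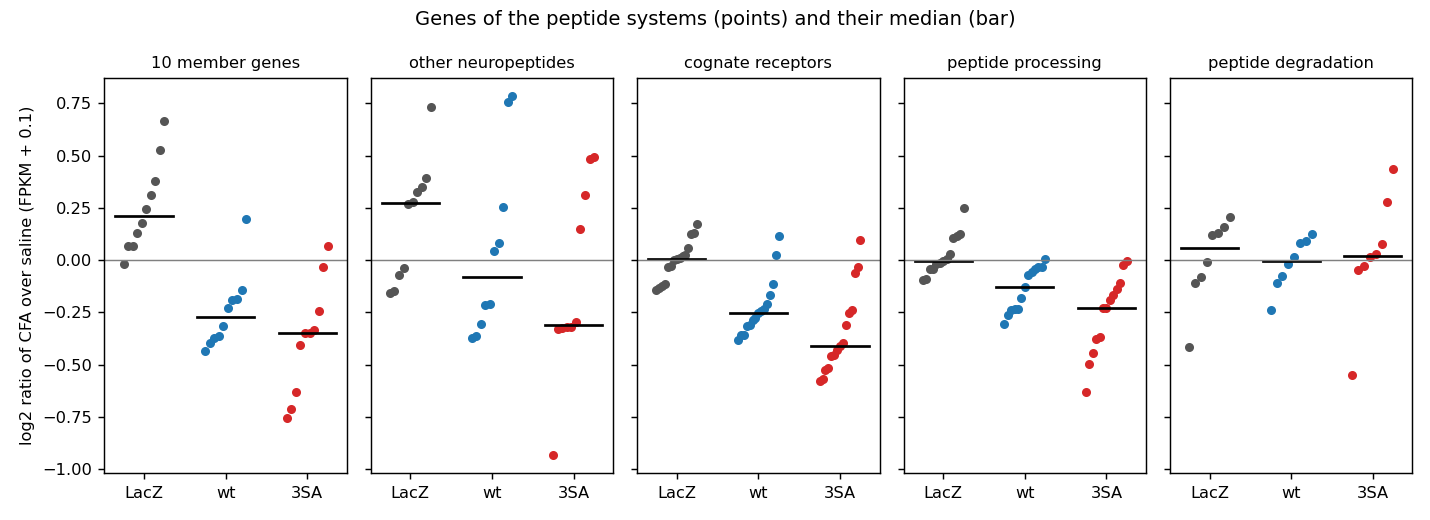
Log2 ratio of CFA over saline (vertical axis, 0.1 FPKM added) for the 10 genes and for 4 lists of related genes for the vectors LacZ, HDAC4 wt and HDAC4 3SA. Each point is a gene with a mean of at least 0.5 FPKM and black bars are medians; the receptors lie around 0 with LacZ and mostly below 0 with both HDAC4 vectors, whereas the degrading enzymes stay around 0 with all 3.

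The tissue was checked with marker genes. Transcription factor genes of dorsal horn neurons moved in the same direction as the peptides: the 6 genes had median log2 ratios of 0.13 with LacZ, -0.33 with HDAC4 wt and -0.48 with HDAC4 3SA, with 6 of 6 higher with LacZ and 5 of 6 lower with each HDAC4 vector. Tlx3, which specifies excitatory dorsal horn neurons, had ratios of 0.36, -0.34 and -0.52, and Lmx1b had 0.15, -0.33 and -0.59. Tfap2b, at a mean of 0.989 FPKM, had 0.10, -0.46 and -0.71. The exception with the HDAC4 vectors was Prrxl1, which is also 1 of the 6 counted as higher with LacZ. Its more abundant locus, used here, lies by the order of the loci on the opposite strand and had 0.09, 0.22 and 0.22, whereas the locus on its own strand, at a mean of 0.345 FPKM, had -0.26, -0.19 and -0.69. Genes of all neurons had medians of 0.01, -0.14 and -0.23, and those of excitatory and inhibitory transmission -0.08, -0.16 and -0.36. Motor neuron genes moved the other way with the HDAC4 vectors. Their median was 0.38 with LacZ, 1.11 with HDAC4 wt and 1.25 with HDAC4 3SA, and the 5, 4 and 5 genes of the list that were read were all higher after CFA. Chat, the acetylcholine-synthesizing enzyme, went from 4.57 to 5.97 FPKM with LacZ and from 2.25 to 5.09 FPKM with HDAC4 wt. With HDAC4 3SA Chat went from 4.45 to 11.05 FPKM. The summed level of the 5 motor neuron genes was 27.8 and 36.1, 12.8 and 28.9, and 20.2 and 44.6 FPKM, saline before CFA. Motor neurons lie in the ventral horn. The part in the peptide values of how much ventral tissue each group held was not tested.

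Other cell types also differed between saline and CFA. Microglial genes had medians of 0.05, 0.18 and 0.56 with LacZ, HDAC4 wt and HDAC4 3SA, with 4, 5 and 5 of 5 higher after CFA, and their summed level ranged from 111 to 494 FPKM over the groups. Astrocyte genes had medians of -0.08, 0.19 and 0.26 (2, 5 and 3 of 5 higher, sums of 843 to 1617 FPKM), and endothelial genes 0.10, 0.22 and 0.31 (3, 4 and 4 of 4, sums of 63.8 to 100.2 FPKM). The medians of these glial and vessel genes were above 0 with both HDAC4 vectors. Schwann cell genes had 0.61, -0.04 and -0.74 (4, 1 and 0 of 4 higher, sums of 612 to 1158 FPKM). Leptomeningeal fibroblast genes had 0.46, 0.22 and 0.12 (5, 3 and 3 of 5, sums of 121 to 166 FPKM). Neutrophil genes had 3.34, -0.66 and -0.88 (5, 0 and 0 of 5), and their sum was 10.5 and 109 FPKM with LacZ, 39.4 and 27.6 FPKM with HDAC4 wt, and 58.8 and 36.8 FPKM with HDAC4 3SA. Skeletal muscle genes had 1.13, -2.19 and -0.42 (4 of 4, 0 of 3 and 1 of 4 higher, sums of 0.734 to 47.0 FPKM). The neutrophil, Schwann cell and skeletal muscle lists, which mark blood, nerve root and muscle rather than dorsal horn, had medians above 0 with LacZ and below 0 with both HDAC4 vectors, as the 10 genes had. Oligodendrocyte genes had 0.00, 0.20 and 0.13 (2, 4 and 4 of 4 higher, sums of 1182 to 1609 FPKM). Of 6 genes of dorsal root ganglion neurons 3 were found, and Trpv1 and P2rx3 lay at or below 0.598 FPKM in every group. The summed level of that list was 1.55 and 1.47 FPKM with LacZ, 3.77 and 10.5 FPKM with HDAC4 wt, and 6.88 and 7.90 FPKM with HDAC4 3SA, most of it from Avil, whose more abundant locus lies on the opposite strand. The part of these lists in the peptide values was not tested.

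**Figure D4:**
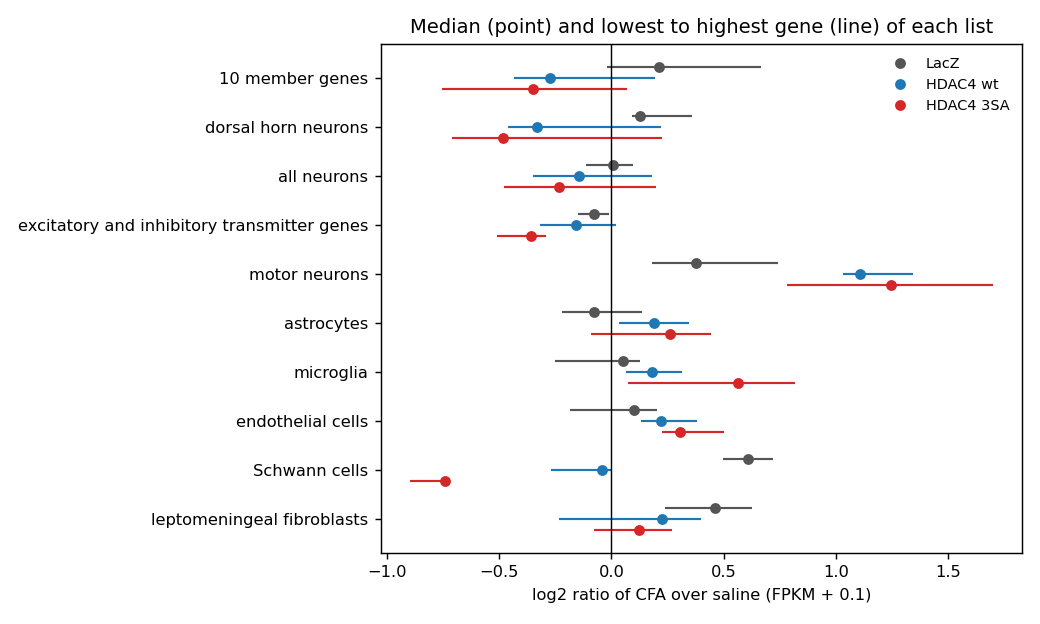
Median log2 ratio of CFA over saline (points, horizontal axis, 0.1 FPKM added) and the range from the lowest to the highest gene (lines) for the 10 genes and for marker lists of cell types, by vector. The lists of dorsal horn neurons, all neurons (0.01 with LacZ) and Schwann cells have their points on the same side of 0 as the 10 genes. The motor neuron list has all 3 points above 0.

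The genes were also compared by their profile over the 6 groups, as a description over 6 values from 3 separately normalized tables. The 45 pairs of the 10 genes had a median Pearson r of 0.65 (range -0.70 to 0.97). The 9 pairs with Gal, singled out after the values were seen, had a median of -0.35 (range -0.70 to 0.22). Among 10339 named loci with a mean of at least 5 FPKM, the profiles most like the mean profile of the 10 genes were those of Rpa2, Nptx2 and Pam, each with r = 0.98. Rpa2 went from 7.82 to 8.43 FPKM with LacZ, 8.52 to 8.10 FPKM with HDAC4 wt and 8.06 to 7.49 FPKM with HDAC4 3SA. The value of r does not depend on the size of such differences. Nptx2 encodes a neuronal pentraxin that is secreted at excitatory synapses, and Pam the enzyme that amidates peptides. Nptx2 went from 6.71 to 8.38 FPKM with LacZ, 9.17 to 7.29 FPKM with HDAC4 wt and 6.52 to 4.56 FPKM with HDAC4 3SA, and Pam from 59.3 to 64.2, from 64.1 to 58.7 and from 58.9 to 51.6 FPKM. The loci most like Sst were Ccdc177, Gm14740 and Zdhhc1, with r between 0.98 and 0.99.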

How the data were processed

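RNA of dorsal spinal cord was sequenced from 18 mice in 6 groups. Per the labels and the study's methods, the authors mapped strand-specific reads with TopHat and Bowtie to mm10/GRCm38, used Ensembl annotation, and combined each group with Cufflinks and Cuffdiff, which gave 1 table per vector. The deposited FPKM values are the authors' group values. The tables also hold the authors' own comparison (fold change, statistic, p-value and q-value), which was not used. Loci were matched between tables by identifier, and 386 of 34579 that lay at different places were left out. Where a name had several loci, that with the highest mean FPKM was used. Log2 ratios were computed with Python 3.11.15 and pandas 2.3.3, and the steps were tested on simulated data. With 1 value per group, no test across mice could be made from the group values. Locus coordinates are those of the tables. Genes named are the 10 members, at most 5 per list (the largest ratios past 0.5, otherwise the most abundant), the most abundant listed receptor of a peptide, and the 3 most similar profiles. Other receptors, genes named as exceptions and genes named for the strand of a locus were chosen after their values were seen. The members and lists were chosen with earlier results of these data known. Alternatives were other constants added, other minimum levels, centring, and summing the loci of a name. Another 2 marker genes are not reported here.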

Additional observations from a re-analysis of the deposited data

How the results depend on the processing

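The signs of the median log2 ratio of the 10 genes in LacZ, HDAC4 wt and HDAC4 3SA mice were the same under all 6 alternatives, and each median moved by less than 0.1. Of 174 ratios of single genes recomputed, 1 had the other sign, that of Grpr in HDAC4 wt mice with both of its loci added (0.00), and 5, all of Grpr or Nmu, moved by more than 0.1. Adding 1 FPKM to both values left 1 gene above 0.5 in LacZ mice (Gal), by the construction of the constant. With a minimum of 5 FPKM, 1 gene (Cck) stayed below -0.5 in HDAC4 3SA mice, since Nmu and Grpr were then not read. Grpr was no longer below -0.5 with 1 FPKM added (-0.39) or with its loci added (-0.48), which left 2 genes, Nmu and Cck, in both cases. Centring the saline levels between vectors moved no median by 0.1. No paired analysis was possible because the tables hold 1 value per group, and for the same reason no mouse could be left out. Read counts and depth per library were not in the tables, so what depth limits is unknown.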

Other observations

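Several names of the lists have a locus on each strand, told apart by the order of the loci. The locus of Tac2 on the opposite strand, at 17.9 and 32.9 FPKM in LacZ mice (saline before CFA), had log2 ratios of CFA over saline of 0.87, 0.32 and 0.27 in LacZ, HDAC4 wt and HDAC4 3SA mice, where its own strand had 0.35, -0.37 and -0.32. That of Slc17a6, the vesicular glutamate transporter gene, had a mean of 22.2 FPKM and ratios of 0.39, -0.74 and 0.66, where its own strand had -0.08, -0.23 and -0.42. The opposite strand of Cadps2 had 0.66, 1.12 and -0.41, against 0.03, -0.18 and -0.23 on its own strand. These loci were chosen after their values were seen, and their differences were not tested.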
